A study of Mus musculus with 7 samples.

Results

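The comparison set RNA precipitated with an EZH2 antibody from mouse embryonic stem (ES) cells that lacked Safb and Safb2 against the same precipitate from wild-type cells. Its members were chosen by genotype label and make up 5 of the 7 libraries of the series: 3 wild-type (WT) and 2 SAFB/SAFB2 double-knockout (DKO) libraries. The 2 Ezh2 knockout libraries entered no comparison here. All 5 came from male CAST/B6 ES cells of a Rosa26-RMCE line, an F1-type hybrid background with a cassette-exchange site at Rosa26. Both genotypes were grown in 15% fetal bovine serum at 37 °C and 5% CO2 and had received doxycycline for 3 days, whose purpose the labels do not state. The WT libraries came from the parental line and from clones 20 and 44, and the DKO libraries from clones 13 and 4, so each replicate was 1 clone or the parent, and p-values measure the spread between these lines. Both DKO labels carry the same replicate number. Clone identity and genotype cannot be told apart beyond the agreement of the 2 DKO clones.

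SAFB (scaffold attachment factor B) and its paralog SAFB2 are nuclear proteins with an RNA recognition motif and a SAP DNA-binding domain, and they bind purine-rich RNA. SLTM is the third member of the family. EZH2 is the catalytic subunit of Polycomb repressive complex 2 (PRC2), which methylates lysine 27 of histone H3. By the title of the series, the monoclonal antibody, made against the human protein, also recognises SAFB, so the comparison asks which of the precipitated RNA depends on the SAFB proteins.

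RNA bound in the precipitate was sequenced after depletion of ribosomal RNA (RIP-seq), and reads were counted in 303889 strand-specific intervals, called features here. The feature names state that they were called on wild-type precipitates, so a region with signal in DKO cells only would not be counted. Without input RNA, a change in precipitated RNA and a change in the amount of that RNA in the cell cannot be told apart. Total counts were 19024702 to 21832539 in WT and 15812517 to 18738499 in DKO. Correlations of log2 counts scaled to library size over tested features were 0.949 to 0.956 within WT, 0.926 between the DKO clones and 0.761 to 0.799 between genotypes, as a description. Levels below are counts per 1000000 reads of the library (CPM) after scaling by TMM factors from features outside the authors' filtered peak list, differences are log2 fold changes of DKO over WT with their standard error (SE), and "fell" and "rose" mark a Benjamini-Hochberg adjusted p under 0.05.

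The targeted genes were nearly absent from the DKO libraries. Safb (chr17:56584825-56606294, plus strand) had 256, 263 and 125 CPM in the WT parent, clone 20 and clone 44, and 1.502 and 0.629 CPM in DKO clones 13 and 4. It fell by 7.61 (SE 0.40, adjusted p = 7.8e-09), from 2247 to 5202 counts in WT to 31 and 11. Safb2 (chr17:56560965-56584585, minus strand), which lies head to head with Safb, had 311, 325 and 133 CPM in WT and 3.10 and 0.858 in DKO, and it fell by 6.96 (SE 0.47, adjusted p = 4.8e-08). The groups did not overlap in either gene, and WT clone 44 was the lowest WT library in both. Signal was lower along both genes: the median feature kept 0.459% of its WT level in Safb (11 features, at most 3.72%) and 0.323% in Safb2 (13 features). The Safb2 feature nearest the 3′ end of that gene (chr17:56561733-56561892) kept the most, 27.1%. It had 1.38, 1.92 and 1.06 CPM in WT and 0.388 and 0.400 in DKO. The strongest feature of the locus was intronic, at chr17:56576162-56576836 in Safb2, with 190, 201 and 62.5 CPM in WT and 1.02 and 0.114 in DKO. This feature held 59.0% of the gene's WT signal, and the intronic feature at chr17:56597787-56598514 held 43.6% of that of Safb.

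**Figure D1:**
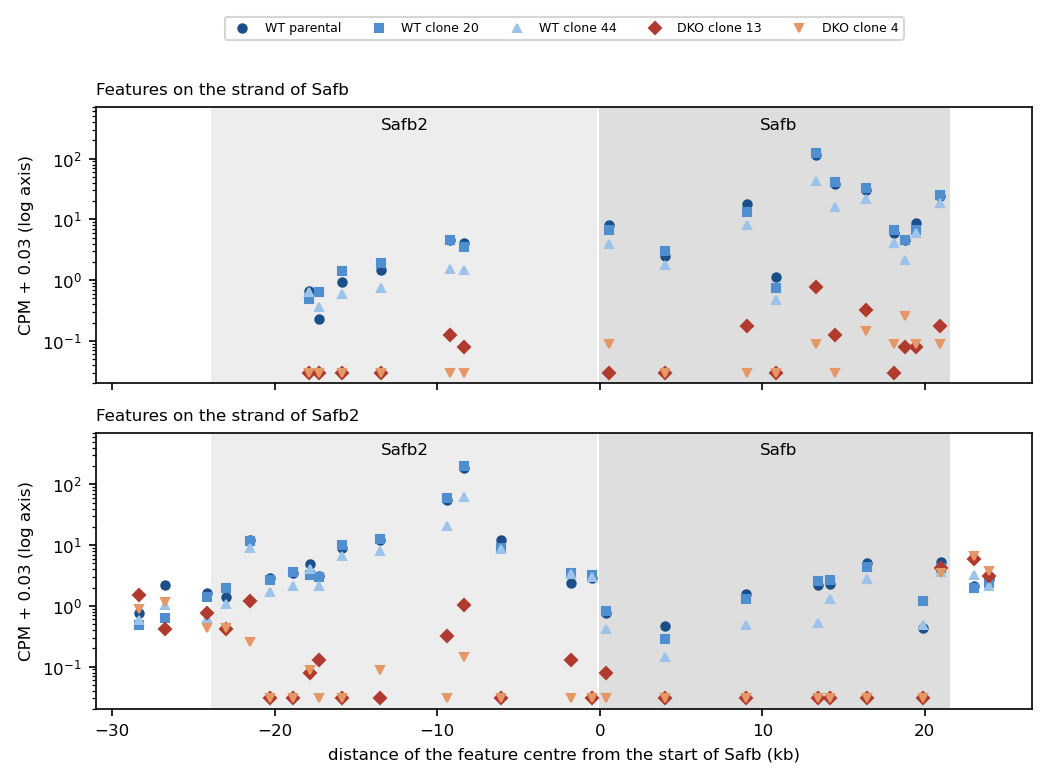
Level of each feature around Safb and Safb2 in the 5 libraries, against the distance of its centre from the start of Safb (kb); shaded spans are the 2 genes, the y axis is CPM + 0.03 on a log axis, and each symbol is 1 library. Features of both strands inside the genes drop in both DKO clones, except the one antisense feature across the 3′ end of Safb, those in the neighbouring gene 2410015M20Rik do not, and WT clone 44 lies below the other WT libraries at the highest intronic features.

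Sltm had 344, 361 and 395 CPM in WT and 207 and 226 in DKO, without overlap. It fell by 0.76 (SE 0.10, adjusted p = 2.1e-05), but its exon features alone gave -0.14 (adjusted p = 0.359). Ezh2, the gene of the protein the antibody was raised against, had 186, 217 and 177 CPM in WT and 152 and 181 in DKO. These groups overlapped, and its log2 fold change of -0.21 (SE 0.11, adjusted p = 0.121) did not pass. It was called without DKO clone 4 (-0.35, adjusted p = 0.0309) and with a minimum mean of 50 counts (-0.31, adjusted p = 0.0321), and had the opposite sign with column totals (0.023) and with exon features alone (0.0047).

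Intron and intergenic features held a smaller share of the counts in DKO, and exon features a larger one. These are shares of counts in intervals called on WT, not of all precipitated RNA. The shares of a library are tied to each other, so lower shares of some classes raise the others. Intron features held 32.6%, 33.4% and 32.0% of counts in WT and 25.5% and 25.2% in DKO. Intergenic features held 5.41 ± 0.152% in WT (mean ± SD, n = 3) and 2.50 ± 0.0263% in DKO (n = 2), a ratio of 0.462. Antisense features went from 3.68 ± 0.213% to 2.37 ± 0.716%, with clone 13 at 2.87% and clone 4 at 1.86%. Coding exons held 30.4 ± 0.677% in WT and 33.3 ± 0.0128% in DKO, untranslated regions (UTR) 14.2 ± 0.485% and 19.1 ± 1.16%, and noncoding exons 13.6 ± 0.599% and 17.4 ± 0.275%. None of the 6 classes overlapped between the genotypes, and each had an exact permutation p = 0.1 (two-sided, 0.1 after adjustment over classes), the smallest that 3 against 2 libraries can give. The 95% exact (Clopper-Pearson) interval of any such share was at most 0.0465 percentage points wide. It treats reads as independent and leaves out the spread between libraries. PCR copies could not be removed by molecular tags, so it may be too narrow even for counting error.

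**Figure D2:**
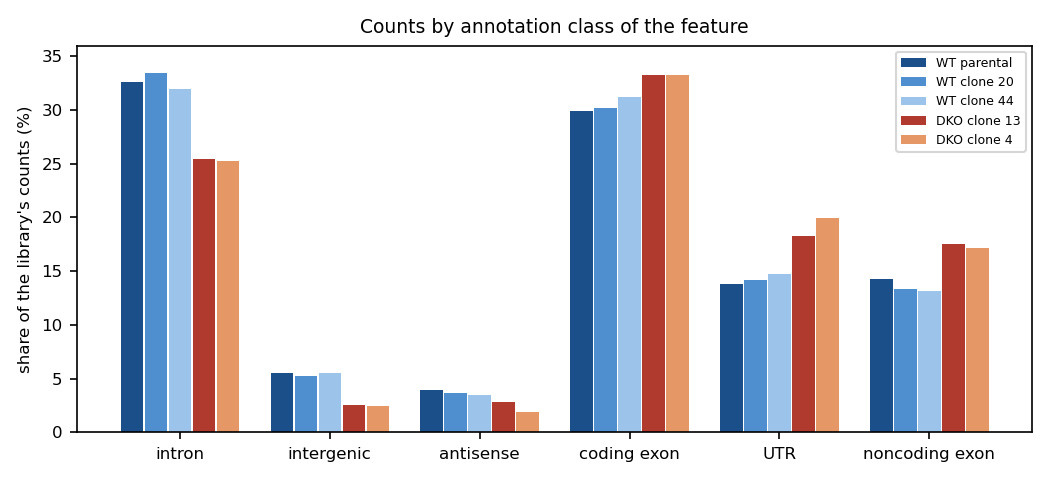
Share of each library's counts (%, y axis from 0) in features of each annotation class, 1 bar per library. Both DKO bars lie below all WT bars for introns, intergenic and antisense features and above them for coding exons, UTRs and noncoding exons.

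Of 180277 features tested, 40647 fell (22.5%) and 12560 rose (6.97%). The rises were the less stable side when 1 WT library was left out. Without the WT parent 5605 features rose and 30139 fell, without WT clone 20 6048 and 31167, and without WT clone 44 8239 and 33872. Falls were 76.4% of calls, but 59.9% with column totals in place of the reference scaling, a choice that moved the median of all features from -0.13 to 0.11. Outside the filtered list, where the scaling was set, 45.7% of 9293 intergenic features fell (median -1.49) and 1.52% rose. There, 29.6% of 9481 antisense features fell and 4.13% rose (median -0.47), and 14.9% of 82557 intron features fell and 3.63% rose (median -0.15). The order reversed in coding exons and UTRs: 6.27% of 42806 coding-exon features fell and 13.6% rose (median 0.35), and 10.7% of 13565 UTR features fell and 20.0% rose (median 0.24). It did not reverse in noncoding exons, where 22.2% of 3520 features fell and 14.2% rose (median -0.03).

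The authors' short list of peaks fell almost as a class. Of its 10043 peaks 10042 were tested and 9959 fell (99.2%), against 22.5% of all features and 15.1% of those outside the filtered list. The median was -3.26, with quartiles of -3.95 and -2.64, and -3.26 again when the 306 peaks with no count in either DKO clone stood at the bound that 3 counts over the group set. By edgeR 0 rose, also at an unadjusted p under 0.05 and by DESeq2, but 4 rose without DKO clone 13. All intervals were called on WT, and how the list was drawn from them is not given in the sources used here, so the fall is not independent evidence of its direction. All 6 classes shared it: the median was -3.34 in 5592 intron peaks, -3.18 in 2436 intergenic, -3.20 in 1324 antisense, -3.07 in 384 noncoding-exon, -2.56 in 164 coding-exon and -2.73 in 142 UTR peaks. The fall was not particular to the short list. Of 9013 tested filtered peaks outside it 70.8% fell and 5 rose, with a median of -3.04.

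The peak with the highest WT level lay in Malat1, an abundant nuclear noncoding RNA, at chr19:5800677-5802530. It had 34121, 33353 and 26017 CPM in WT and 2390 and 2448 in DKO and fell by 3.69 (SE 0.09, adjusted p = 1.3e-14). The next was the exon shared by Zbed6, a transcription factor derived from a transposon, and its host gene Zc3h11a (chr1:133656791-133660102). It had 1099, 1088 and 1265 CPM in WT and 157 and 181 in DKO and fell by 2.77 (SE 0.11, adjusted p = 6.8e-12). The other exon peaks followed the same course. The peak in the predicted noncoding genes Gm20388 and Gm42047 (chr8:121836402-121837432) had 880 to 920 CPM in WT and 82.2 and 124 in DKO. That in the long exon of Rtn4 used by its Nogo-A isoform (chr11:29706508-29708778) had 730 to 804 and 152 and 147 CPM. That in the long exon of Naca used by its muscle isoform (chr10:128041410-128044851) had 584 to 728 and 60.7 and 58.5 CPM and fell by 3.44. The only intronic peak among the 6 highest, in Etl4 (chr2:20537705-20542067), had 731, 747 and 737 CPM in WT and 70.8 and 64.7 in DKO and fell by 3.45 (SE 0.11, adjusted p = 6.0e-13). WT and DKO libraries did not overlap in any of the 6, as in 10009 of the 10042 tested short-list peaks.

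The stretches below are shown because SAFB proteins are known for binding purine-rich RNA. Each is the 150-base window with the most matches to GAAGA in 1 of 3 named short-list peaks or in an exon feature of the ratio gene Gm14443, with the matches in capitals, read 5′ to 3′ on the RNA strand from GENCODE M21 transcripts (mm10). They lie at chr19:5801799-5801948 (minus strand), chr1:133659448-133659597 (minus strand), chr10:128042448-128042597 (plus strand) and chr2:175170278-175170427 (minus strand, Gm14443, a zinc finger gene described further on).
Malat1: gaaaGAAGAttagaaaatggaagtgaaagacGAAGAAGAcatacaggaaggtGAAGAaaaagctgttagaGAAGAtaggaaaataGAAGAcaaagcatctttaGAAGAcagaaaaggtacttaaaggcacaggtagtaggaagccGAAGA
Zbed6: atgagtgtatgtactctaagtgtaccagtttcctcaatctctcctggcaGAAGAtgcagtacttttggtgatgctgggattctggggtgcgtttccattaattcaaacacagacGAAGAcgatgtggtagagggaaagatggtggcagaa
Naca: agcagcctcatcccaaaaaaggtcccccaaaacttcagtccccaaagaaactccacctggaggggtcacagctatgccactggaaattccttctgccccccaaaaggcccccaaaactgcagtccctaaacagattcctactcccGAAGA
Gm14443: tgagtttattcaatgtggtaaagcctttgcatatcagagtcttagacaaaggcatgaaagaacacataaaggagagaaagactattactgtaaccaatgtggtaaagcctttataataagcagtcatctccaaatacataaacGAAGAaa
The Malat1 peak held 19 matches in 1854 bases (10.2 per kb) and was 61.7% purine. The Zbed6 peak held 8 (2.42 per kb, 51.7% purine), the Naca peak 3 (0.872 per kb, 45.3% purine) and the Gm14443 feature 2 in 661 bases (3.03 per kb, 61.4% purine). The Naca peak was the least rich in purine of the 4. Of 19518 windows of 150 bases in coding-exon features, 33.2% held GAAGA and 20.1% its reverse complement TCTTC, and 0.799% held 4 or more GAAGA. The stretches shown were picked for their matches and the Malat1 one is noncoding, so these shares are not a like background for them. A match describes the letters and is not a binding site.

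Features that rose outside the filtered list changed less. A coding-exon feature of Upp1, which encodes uridine phosphorylase, at chr11:9134708-9135361 had 6.52, 11.1 and 9.76 CPM in WT and 47.8 and 30.3 in DKO (2.10, SE 0.22, adjusted p = 3.5e-07). An intronic feature of Pfkp, a phosphofructokinase of glycolysis (chr13:6619119-6619566), had 5.73, 7.34 and 7.69 against 25.4 and 22.2 CPM (1.78, SE 0.19, adjusted p = 4.7e-07). The 3′ feature of Ak4, a mitochondrial adenylate kinase (chr4:101464531-101466851), had 15.2, 22.2 and 19.7 against 70.6 and 53.7 CPM (1.71, SE 0.17, adjusted p = 2.5e-07). Groups did not overlap in these, nor in the rising features of Pnma5 (2.03) and Aire (1.73). The largest rise among features of at least 20 CPM in DKO, an intergenic one at chr10:11492097-11492218, rested on 1 library. It had 25.9, 9.31 and 8.81 CPM in WT and 115 and 17.4 in DKO, so the groups overlapped, and its change of 2.18 (SE 0.48, adjusted p = 0.00171) was 0.26 (adjusted p = 0.417) without DKO clone 13. It was not called without WT clone 44 (1.89, adjusted p = 0.0622) or by DESeq2 (2.27, adjusted p = 0.105).

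Summed over the features of each gene, 6489 of 16403 genes fell (39.6%) and 3533 rose (21.5%), with a median of -0.22. When only exon features were summed, the balance turned: 3346 of 14295 genes fell (23.4%) and 4291 rose (30.0%), with a median of 0.15. The share of falls among called genes was 64.7%, against 43.8% with exon features alone, 50.9% with column totals and 53.9% by DESeq2.

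Among genes with at least 20 CPM in the higher group, the largest falls came from introns, mostly of long genes. Cfap299, a cilium gene of 473 kb, had 20.7, 23.0 and 20.2 CPM in WT and 0.630 and 0.686 in DKO (-5.01, SE 0.24, adjusted p = 5.0e-09). All its 38 features were intronic. Wls, which encodes the carrier needed for Wnt secretion, had 40.5, 41.8 and 30.3 CPM in WT and 0.921 and 1.94 in DKO (-4.74, SE 0.27, adjusted p = 1.3e-08), with 96.1% of its WT signal in introns. Galnt13, a glycosyltransferase gene of 682 kb, had 32.7 to 42.6 CPM in WT and 1.55 and 1.60 in DKO (-4.59), and 99.5% of its WT signal was intronic. Xkr4 (-4.38), the GABA receptor subunit gene Gabrg3 (-4.42) and Cdh13, which encodes T-cadherin (-4.34), spanned 466, 671 and 1041 kb and had 94.9%, 100% and 100% of their WT signal in introns. Gabrg3 had 53.2 and 56.3 CPM in the WT parent and clone 20 but 20.5 in clone 44. The antisense transcripts AC152076.4 (-4.62) and Pla2g10os (-4.29, 1 feature) completed the 8. Groups did not overlap in any of them, which the rule for naming required.

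The largest rises were smaller and higher in DKO clone 13 than in clone 4 in each gene named here, and introns held at most 22.5% of their WT signal except in Bnip3 (81.9%). Pnma5, a gene of the Ma family on the X chromosome, had 5.43, 6.37 and 6.47 CPM in WT and 33.6 and 15.96 in DKO (2.03, SE 0.25, adjusted p = 1.4e-05). Ndrg1, a stress-response gene induced in low oxygen, had 4.30, 8.09 and 6.64 against 30.3 and 20.2 CPM (2.00, SE 0.24, adjusted p = 8.8e-06). Upp1 had 28.1, 41.7 and 37.2 against 154 and 104 CPM (1.86, SE 0.17, adjusted p = 7.7e-07). Bnip3, a mitophagy receptor gene also induced in low oxygen, had 6.91 and 6.30 CPM in the WT parent and clone 44 but 20.1 in WT clone 20, against 48.2 and 30.4 in DKO (1.82, SE 0.36, adjusted p = 6.8e-04). Gm2a, a lysosomal activator gene, had 12.7 to 16.7 against 58.0 and 31.6 CPM (1.67), and Smtnl2 had 22.7 to 28.4 against 86.7 and 75.3 (1.66, SE 0.12, adjusted p = 1.2e-07). Aldoart1 (1.56) is a retrogene copy of Aldoa and may share its reads, so its change is uncertain. Groups did not overlap in these genes, a condition of their choice.

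Within genes, intronic RNA fell relative to exonic RNA, a comparison made inside each library. Of 9426 genes with intron and exon features, the log2 ratio of intron to exon CPM (each + 1) fell in 4098 (43.5%) and rose in 788 (8.36%) by limma, with a median difference of -0.42. Of the 4098 genes with a lower ratio, exon counts rose in 1751 and fell in 516. Of the 788 with a higher ratio, exon counts fell in 687 and rose in 8. Exon counts enter the ratio, so these counts describe which side moved and are no separate test.

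Mrpl45, a protein gene of the mitochondrial ribosome, had the largest fall of the ratio, by 4.08 (SE 0.16, adjusted p = 4.3e-11). Its introns had 38.3, 37.1 and 43.1 CPM in WT and 3.05 and 3.03 in DKO, while its exons had 38.4, 37.0 and 43.4 in WT and 77.3 and 58.7 in DKO. Serpinb6a, a protease inhibitor gene (-3.92), and C9orf72, a regulator of endosomes and autophagy (-3.66), likewise had lower introns and higher exons: those of C9orf72 had 6.80 to 10.8 and 0.727 and 0.743 CPM in introns, and 3.46 to 4.25 and 10.8 and 8.81 CPM in exons. In Pkia (-3.67), Asb3 (-3.63) and the deacetylase gene Hdac8 (-3.62) introns carried most of the WT signal. Hdac8 introns had 91.9 to 97.8 CPM in WT and 7.90 and 8.06 in DKO, beside exons at 1.78 to 2.47 and 2.13 and 2.86 CPM. WT and DKO introns did not overlap in any of the 6. These genes were picked for the largest falls of the ratio in the same libraries, so this is a description only.

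The largest rises of the ratio were falls of exons. Naca exons had 629 to 776 CPM in WT and 111 and 104 in DKO, while its introns had 7.64 to 9.38 and 13.6 and 8.12 (ratio difference 2.94, SE 0.15, adjusted p = 2.2e-10). Rbmx, which encodes the splicing regulator hnRNP G, had 49.0 to 54.1 CPM in exons in WT and 4.80 and 6.75 in DKO, with introns at 3.01 to 3.95 and 3.05 and 3.37 (2.86, SE 0.21, adjusted p = 8.4e-09). The zinc finger gene Zfp931 had the largest difference (3.01, SE 0.26, adjusted p = 4.9e-08): its exons had 18.6, 20.9 and 21.5 CPM in WT and 3.05 and 2.52 in DKO. Gm14444 (2.85), Gm14443 (2.71) and AU041133 (2.71), which belong to families of similar zinc finger genes, may share reads with their copies and are uncertain.

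**Figure D3:**
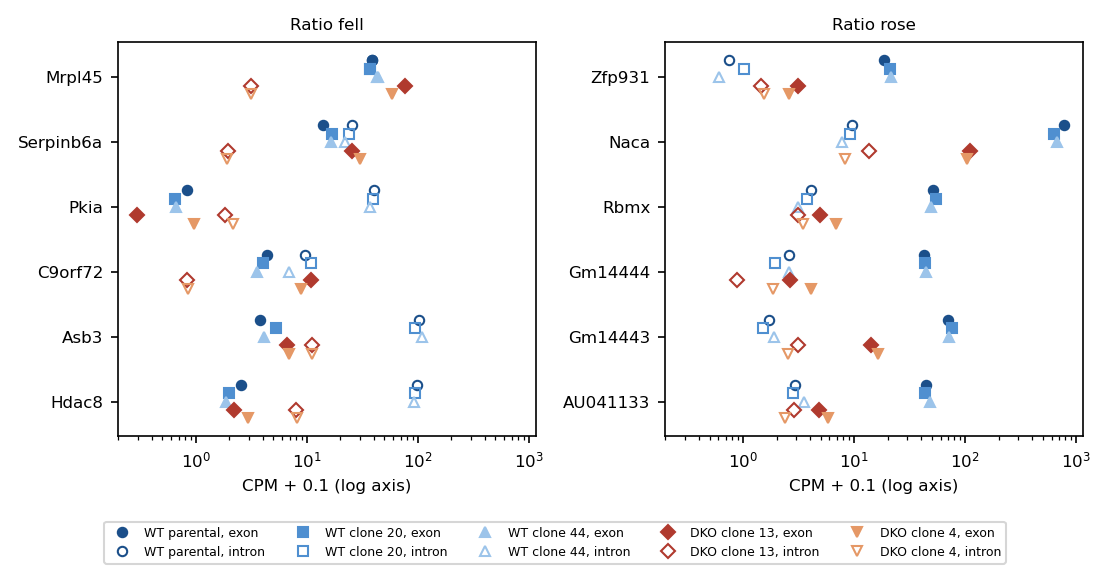
Exon (filled) and intron (open) levels of the 6 genes whose intron to exon ratio fell most and the 6 whose ratio rose most, in CPM + 0.1 on a log axis, 1 symbol per library. On the left the open DKO symbols move to lower values, and on the right the filled ones do.

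Zinc finger genes stood out among genes with falling exons. They were counted by name (Zfp followed by a number) after their values had been seen, so the counts are a description. Of 339 such genes, exon counts fell in 264 (77.9%) and rose in 14, with a median of -1.32. Among 13956 other genes 22.1% fell and the median was 0.17. The intron to exon ratio rose in 120 of 234 zinc finger genes (51.3%) and in 7.27% of 9192 others. Many of these genes have their whole row of fingers in 1 long last exon, and members of a cluster may share reads.

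Exon length tracked the change more generally. Among coding-exon features outside the filtered list, 1.78% of 18722 in exons of up to 150 bases fell and 12.0% rose (median 0.43). In exons of 300 to 600 bases 6.33% of 2826 fell, in those of 600 to 1000 bases 20.4% of 1462, and in those of 1000 to 3000 bases 40.01% of 2192. In exons over 3000 bases 54.8% of 1031 fell and 3.201% rose, with a median of -0.78. Both clones followed the order: the median difference from the WT mean went from 0.31 in each at the shortest exons to -0.75 in clone 13 and -0.65 in clone 4 at the longest. Feature width and level moved with exon length, from a median of 157 bases and 1.12 CPM in WT to 1257 bases and 9.79 CPM. Among features of 2 to 8 CPM in WT, 3.09% fell in the shortest and 39.6% in the longest exons, and without zinc finger genes the share in the longest was 51.0%.

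For introns, the length of the gene went the same way. Intron features outside the filtered list had a median of 0.11 in genes of up to 10 kb (14.2% of 2329 fell, 15.4% rose). In genes of 30 to 100 kb the median was -0.02 and 10.8% of 29086 fell, and in genes over 300 kb it was -0.61, with 26.4% of 10967 falling and 0.793% rising. Median WT levels moved with gene length too, from 2.26 CPM in the shortest genes and 1.47 in the next bin to 1.18 in genes of 30 to 100 kb and 1.05 in those over 300 kb. Rises thinned at every step, while the share that fell was lowest in the middle. The short list itself took up 2.03% of intron features in genes of up to 10 kb and 5.203% in those over 300 kb. Distance from the gene's start gave a like order, from a median of 0.02 within 10 kb to -0.92 beyond 300 kb. Within genes, 11.2% fell and 2.74% rose in the first 20% of the gene, and 21.1% fell and 5.19% rose in the last, so both shares were higher there, beside median WT levels of 1.08 and 1.40 CPM.

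**Figure D4:**
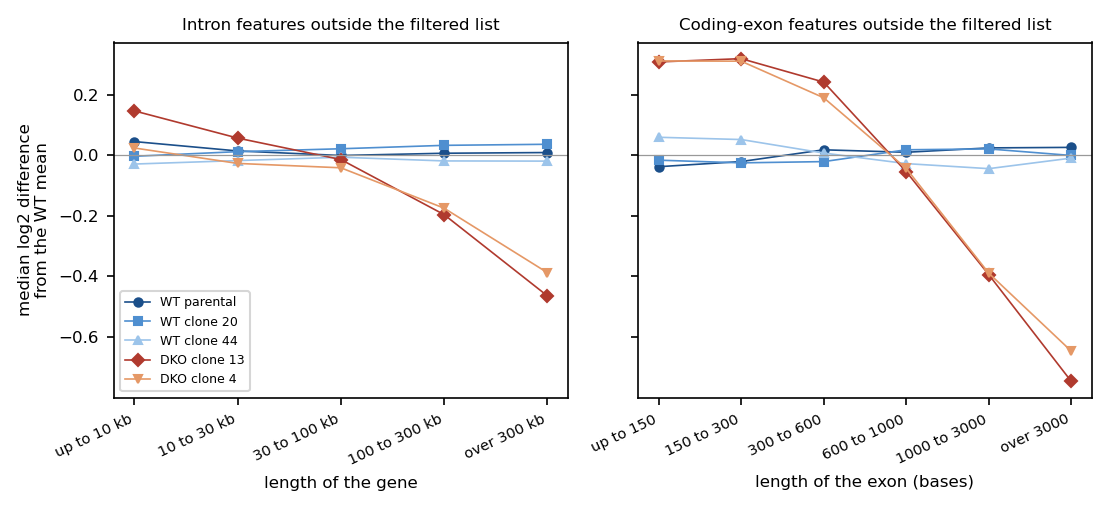
Median log2 difference of each library from the WT mean (y axis) for intron features by length of the gene (left) and coding-exon features by length of the exon (right), both outside the filtered list; lines join the bins of 1 library. The WT libraries stay near 0, and both DKO clones go down with length, to -0.46 and -0.39 in genes over 300 kb and to -0.75 and -0.65 in exons over 3000 bases.

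Base composition moved with the change too. Sequence could be read for 7883 tested coding features that lie wholly inside an exon, 1012 of them over 1000 bases. Unlike the splits by length, this set also took in features on the filtered list, so its shares are not comparable with those by exon length. The part of list membership in the orders below was not tested. These 1012 were split into 4 equal bins for each measure. By adenine share, 39.5% fell in the lowest bin (up to 23.7% adenine) and 92.5% in the highest (from 30.6%), with medians of -0.44 and -1.54. By purine share, 51.0% fell in the lowest and 83.8% in the highest bin. By density of GAAGA, which 96.4% of them contain, 52.96% fell in the lowest (up to 1.61 per kb) and 80.6% in the highest bin (from 4.09 per kb). By its reverse complement TCTTC, 69.6% and 65.2% fell. Without zinc finger genes the lowest and highest adenine bins gave 38.2% and 89.9%. WT levels rose with adenine as well, from a median of 9.91 to 27.8 CPM, and their part in the order was not tested. The split by adenine was chosen after the data were seen.

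Counts over gene lists are set against the shares over all genes, of which 39.6% fell and 21.5% rose. Of 18 glycolysis genes 14 rose and 0 fell by edgeR (0 also at an unadjusted p under 0.05 and by DESeq2), with a median of 0.80 against -0.22 over all genes. Pfkp had 141, 202 and 166 CPM in WT and 491 and 412 in DKO (1.41, SE 0.13, adjusted p = 9.3e-07), and lactate dehydrogenase Ldha 160, 238 and 179 against 457 and 389 (1.14). Summed over the 18 genes, the WT parent had 2602 CPM, WT clone 20 had 3543 and WT clone 44 had 2691, against 6248 and 5113 in DKO. WT clone 20 was the highest WT library in 16 of the 18 genes, so this group also varied between WT lines. In cholesterol synthesis, 12 of 21 genes rose and 0 fell by edgeR (0 also unadjusted and by DESeq2, median 0.41). Insig1, a regulator of the pathway, had 27.4 to 28.3 CPM in WT and 67.0 and 52.96 in DKO (1.11).

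Of 38 ribosomal protein genes, whose reads may be shared with pseudogenes, 29 rose and 2 fell (median 0.63). Rpl8 had 445 to 479 CPM in WT and 881 and 858 in DKO (0.93, SE 0.09, adjusted p = 9.4e-07). Rps15a fell by 1.19 over all features, but its exon features rose by 0.52 (adjusted p = 0.00298). In translation factors 15 of 22 rose and 2 fell (median 0.51), with Eef1a1 at 597 to 619 against 1247 and 1032 CPM (0.91) and the initiation factor Eif5b at 431 to 439 against 223 and 209 (-1.01). Of 28 replication-dependent histone genes, which lack introns, 22 rose and 0 fell by edgeR (0 also unadjusted and by DESeq2, median 0.63). All 6 mitochondrially encoded genes tested rose (5 by DESeq2, 0 fell by either and 0 at an unadjusted p under 0.05, median 0.73): mt-Co1 had 229, 256 and 348 CPM in WT and 457 and 675 in DKO. Of 28 cell cycle genes 20 rose and 3 fell (median 0.54), among the latter Cdk6, with 244 to 301 against 48.6 and 66.9 CPM (-2.24), and Mki67, a proliferation marker with a long coding exon (-0.76). These medians kept their sign under each scaling tried.

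Lists of long genes and of nuclear noncoding RNAs had more falls than rises. Of 27 very long neuronal adhesion and channel genes 24 fell and 1 rose (0 by DESeq2), with a median of -2.84. Cacnb2, a calcium channel subunit, had 41.3 to 45.6 CPM in WT and 4.31 and 4.52 in DKO (-3.29, SE 0.15, adjusted p = 4.7e-09), but -1.34 (adjusted p = 0.149) over its exon features. Of 19 nuclear and imprinted long noncoding RNAs 16 fell and 0 rose by edgeR (0 also unadjusted and by DESeq2, but 1 over exon features alone and 1 with column totals, median -0.75). Kcnq1ot1, the silencing RNA of the Kcnq1 imprinted domain, had 527, 511 and 430 CPM in WT and 88.8 and 112 in DKO (-2.28, SE 0.13, adjusted p = 1.4e-08). Tsix, the antisense RNA of Xist, had 37.8, 33.6 and 48.2 against 2.42 and 3.95 (-3.66).

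Lists of nuclear and chromatin proteins held calls in both directions, as did all genes (39.6% fell, 21.5% rose). In hnRNPs 15 of 26 rose and 5 fell (median 0.34), in SR and related splicing factors 13 of 30 rose (43.3%) and 9 fell (30%, 0.22), and in other nuclear RNA-binding and matrix proteins 8 of 25 rose (32%) and 6 fell (24%, 0.21). Srrm2, a splicing protein with a very long exon, had 4050 to 4436 CPM in WT and 2065 and 2223 in DKO (-0.99, SE 0.09, adjusted p = 6.3e-07), and Pnisr 299 to 441 against 129 and 112 (-1.68). Hnrnpl fell by 0.70 over all features and rose by 0.53 (adjusted p = 4.8e-04) over its exons. Of 14 PRC2 genes and partners 7 rose and 2 fell (median 0.28). Ezh1, the paralog of Ezh2, had 24.8 to 29.3 CPM in WT and 63.0 and 46.6 in DKO (1.02, SE 0.14, adjusted p = 3.4e-05). It lies on chromosome 11, which was higher in both DKO clones as described further on. The accessory subunit Phf19 had 22.1 to 27.7 against 53.4 and 49.2 CPM (1.00). In PRC1, 8 of 19 genes fell (42.1%) and 4 rose (21.1%), near the shares over all genes (median -0.28, but 0.13 over exon features). Pcgf5 fell by 1.90, with 0.34 (adjusted p = 0.245) over its exons.

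Markers of ES cells were present in both genotypes. Of 10 fixed markers 9 had features, all but Sox2, and they summed to 1270 to 1356 CPM in WT and 1797 and 1797 in DKO. Pou5f1, the core pluripotency factor, had 202 to 221 CPM in WT and 350 and 345 in DKO (0.71, SE 0.09, adjusted p = 1.6e-05). Over the longer pluripotency list 12 of 29 rose (41.4%) and 8 fell (27.6%), with a median of 0.02, and 0.32 over exons. Over all genes 21.5% rose and 39.6% fell. Zfp42 fell by 1.08, and Lin28b by 1.47, with -0.24 (adjusted p = 0.271) over its exons. Neural markers summed to 186 to 268 CPM in WT and 75.7 and 74.3 in DKO, nearly all from Nes, which had 260, 180 and 254 against 72.1 and 67.4 CPM (-1.73, SE 0.15, adjusted p = 3.6e-07), and Sox1 and Tubb3 had no features. Endoderm markers summed to 19.9 to 22.4 and 9.84 and 11.4 CPM, mesoderm markers to 17.1 to 18.6 and 8.62 and 8.98, trophoblast markers to 3.18 to 6.32 and 5.67 and 2.86, and feeder fibroblast markers to 8.53 to 10.7 and 10.7 and 6.81. Markers of the 2-cell-like state stayed at 0.557 to 1.73 CPM in WT and 0.630 and 0.572 in DKO. Sox17, Foxa2, Afp, Mixl1, Mesp1, Elf5, Plac1, Col1a2 and Postn had no features. In bulk samples fewer cells of a type and less RNA per cell cannot be told apart, and the part of these markers in the results was not tested.

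Over the wider lists for other cell types, beside 39.6% of all genes falling and 21.5% rising, by edgeR 4 of 6 neural genes fell and 0 rose (median -1.12), 4 of 5 endoderm (-0.66), and 3 of 6 mesoderm genes (-0.93), the last near the share over all genes. In each of these 0 rose also at an unadjusted p under 0.05 and by DESeq2. By exon features alone 1 of 5 endoderm genes fell (Sox7, median -0.29), with Dab2, Gata4 and Col4a1 no longer called, and 2 of 5 mesoderm genes fell (-0.50). By exons alone, 3 of 6 neural genes fell and 1 rose, Ncam1 (0.51, adjusted p = 0.0281), which fell by 0.89 over all features. In the trophoblast list 2 of 5 rose and 0 fell (0 also unadjusted and by DESeq2, median 0.38), in the fibroblast list 1 of 4 rose and 0 fell (0 also unadjusted and by DESeq2, median -0.04, and 0.06 to 0.20 under the other scalings), and the 1 tested gene of the 2-cell-like list was not called (0.40). Of 22 chaperones 8 rose (36.4%) and 3 fell (13.6%, median 0.17). Of 17 p53 targets 6 rose (35.3%) and 3 fell (17.6%, median 0.14), and of 20 matrix genes 8 rose (40%) and 5 fell (25%, median 0.15). The endoplasmic reticulum chaperone Hsp90b1 had 728 to 810 CPM in WT and 365 and 389 in DKO (-1.05), while Fn1, which encodes fibronectin, had 544 to 597 against 1032 and 987 (0.80). The p53 target Eda2r had 111 to 126 against 39.8 and 43.4 CPM (-1.51). All 3 genes of the SAFB family fell and 0 rose by edgeR (0 also unadjusted and by DESeq2), but Safb and Safb2 were the targeted genes. Over exon features alone 2 fell, and Sltm was not called (-0.14, adjusted p = 0.359).

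Chromosome 11 was higher in both DKO clones, and more so in clone 13. Over its 3349 coding-exon features outside the filtered list, the median difference from the WT mean was 0.56 in clone 13 and 0.34 in clone 4. On the 18 other autosomes it ran from 0.16 to 0.32 in clone 13 and from 0.20 to 0.31 in clone 4, and the WT libraries stood at -0.03, -0.04 and 0.07 on chromosome 11. On this chromosome 25.8% of these features rose, against 8.70% to 17.3% on the other autosomes. The distance of chromosome 11 from the median of the others was 0.32 and 0.09 in the DKO clones and -0.01, -0.03 and 0.03 in WT (exact permutation p = 0.1, two-sided, the smallest possible). Chromosome 11 was picked after the values of all chromosomes had been seen, and this p makes no allowance for that choice, so it is a description only. In clone 13 all 20-Mb bins of the chromosome, at 0.37 to 0.71, lay above its range on the other autosomes. In clone 4 the bins ran from 0.30 to 0.44. Those at 0 to 20 Mb (0.295) and 20 to 40 Mb (0.299) lay within the range of its other autosomes. Chromosome 11 held 7.44% of tested genes and 12.2% of those that rose, among them Upp1, Gm2a, Smtnl2 and Ezh1. Without it 6174 genes fell and 3102 rose. Whether the clones carry a change of this chromosome was not tested.

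**Figure D5:**
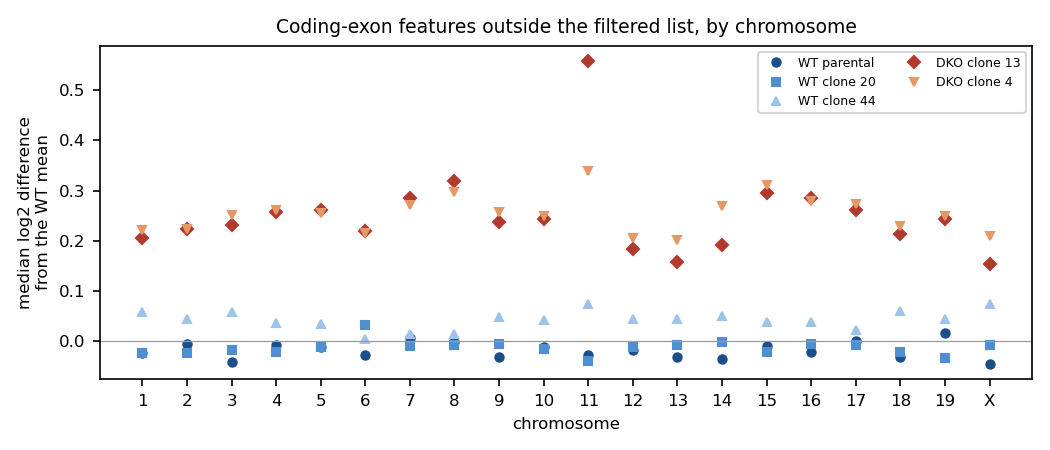
Median log2 difference from the WT mean (y axis) of coding-exon features outside the filtered list, by chromosome (x axis), 1 symbol per library. On chromosome 11 clone 13 stands at 0.56 and clone 4 at 0.34, above the other plotted chromosomes of the same clone.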

How the data were processed

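RIP-seq counts of 5 libraries (3 WT, 2 DKO) were compared. The deposited values are raw read counts in 303889 intervals, made with featureCounts 2.0.3 in reverse-stranded mode per the file headers. Per the submitters' processing notes the build was mm10. The aligner, the peak caller and the criteria of the 2 deposited peak lists (33671 filtered and 10043 short-list peaks) are not given in the sources used here. Pooled columns equalled the sums of their libraries and were left out, and 3 value columns of a control antibody belonged to no sample and were not used.

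Features were annotated on their strand with GENCODE M21 basic genes of the same build. Genes were sums over the 223722 features that overlap 1 gene, the 7446 features of more genes being left out. Counts were tested by quasi-likelihood in edgeR 4.0.16 after filterByExpr and, for the intron to exon ratio of genes with at least 10 intron and 10 exon counts on average, limma 3.58.1 with trend, in R 4.3.3, on the 5 libraries. The 161222 tested features that the filtered list does not hold gave the TMM factors. SE is the absolute log2 fold change over the square root of F. A call needed a Benjamini-Hochberg adjusted p under 0.05. Differences per library by chromosome or length are medians of log2(CPM + 0.5). Scripts were tested on simulated data. Class shares had exact permutation tests in scipy 1.17.1. DESeq2 1.42.0, other scalings and filters, a fit with all 7 libraries and leaving out each library were alternatives.

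Named genes were Safb, Safb2, Sltm and Ezh2, then the 8 largest falls and 8 largest rises with adjusted p under 0.05, no overlap and at least 20 CPM in the higher group, without predicted gene models (Gm numbers and Rik). Named features were the 6 short-list peaks highest in WT and the 6 largest called rises outside the filtered list with at least 20 CPM in DKO, 1 per gene and none on chromosome 18. Named ratio genes were the 6 largest falls and rises called, and up to 4 genes with the lowest adjusted p were eligible in each of 25 lists. The comparison, the lists and these rules were chosen with earlier results of these data known. Where a symbol had more than 1 gene identifier, lists used the one with most counts. A few items that these rules name are not reported here.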

Additional observations from a re-analysis of the deposited data

How the results depend on the processing

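No paired analysis was possible because both DKO labels carry the same replicate number, so the groups share fewer than 2 numbers. Features called numbered 53207 and kept within 1.5 times under each alternative but 1, with 35744 to 63236 when 1 library was left out, 37932 with all 7 libraries and 47212 by DESeq2. A minimum mean of 50 counts gave 24866 called features and 5708 called short-list peaks, with fewer features tested (53194) and fewer short-list peaks (5718). Rises of features numbered 4354 with all 7 libraries, 16905 with TMM over all tested features and 24069 with column totals. Short-list peaks called were 9720 to 9947, genes called 8431 to 9781 and ratios called 4108 to 4827 with 1 library left out. Without mitochondrial and Rn7sk features, the difference in the noncoding-exon share was 2.72 percentage points in place of 3.78. Exon features alone reversed Ezh2 (0.0047), Hnrnpl (0.53), Krt18 (0.0098), Macrod2 (0.16), Ncam1 (0.51), Pcgf5 (0.34), Rps15a (0.52) and Scaf8 (0.12), column totals reversed Ezh2 (0.023), leaving out DKO clone 13 reversed Hand1 (-0.090 to 0.76 over libraries left out), and leaving out WT clone 44 reversed Zfp352 (-0.024 to 0.89); the cause was not tested. The 12 named ratio genes kept call and direction under all alternatives run. With 1 DKO library left, its spread was assumed to be that of the WT group.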
